A study of Mus musculus with 64 samples.

Results

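The genes described here encode the proteins of the mitochondrial ribosome, and they were taken as every row of the deposited expression table whose symbol begins with Mrpl or Mrps and a digit. This rule was met by 68 of the 5647 genes measured. They comprise 45 genes of the large subunit and 22 of the small subunit. The remaining gene, Mrps36, carries the name but is now regarded as a part of the 2-oxoglutarate dehydrogenase complex and not of the ribosome. Of the subunit genes 39 have a homologue in bacterial ribosomes and 28 are specific to mitochondria.

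The libraries came from brain microglia of wild-type C57BL/6J mice, sorted by flow cytometry as live CD11b+ CD45low cells, with 1 mouse per library and 64 libraries in 17 groups. The ageing series of PBS-treated females had 4 mice of 3 months, 2 of 6, 3 of 9, 4 of 12, 5 of 14, 5 of 16 and 3 of 24 months. That of PBS-treated males had 4 mice each of 3, 6, 9, 16 and 24 months, 2 of 12 and 5 of 19 months. Females of 3, 14 and 24 months (3, 5 and 3 mice) received the bacterial endotoxin LPS by intraperitoneal injection and were killed 2 h later. The authors caution that their LPS results may reflect an early response. The PBS females of these ages were the controls of the LPS mice. The ageing and the LPS comparisons of females therefore share control mice.

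Mitochondria keep a small genome whose messenger RNAs encode core subunits of the respiratory chain and of ATP synthase. A dedicated ribosome inside the mitochondrion translates them. Its ribosomal RNAs are transcribed from mitochondrial DNA, but all of its proteins are encoded in the nucleus, made in the cytosol and imported. Microglia, the resident macrophages of the brain, draw on oxidative phosphorylation in the surveying state, and activation by LPS is known for a shift towards glycolysis.

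The values are FPKM, that is fragments scaled for transcript length and sequencing depth, which the authors adjusted for batches and rounded. The read depth is unknown. Library sums ranged from 408457 to 554459. The 11 microglial markers were all measured, with sums of 15020 to 27730 in a library. Markers of neutrophils (13 of 13 measured), monocytes (6 of 8) and T and NK cells (4 of 8) were also present, and none of the 4 neuronal markers was in the table. In bulk libraries fewer cells of a type and less RNA per cell cannot be told apart. Libraries were compared with limma on log2(value + 1), and a gene was called at an adjusted p under 0.05 over all 5647 genes with a fold over 1.5. On this scale the folds of low genes come out too small.

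The promoters of 4 genes are shown because these genes carried the clearest responses to LPS described below. Mrps11 and Mrpl44 were lower after LPS at 24 months, and Mrpl52 and Mrps18b were higher after LPS at 3 months. Each run holds the 300 bases from 250 before to 50 after the start given by RefSeq on GRCm38.p6, read 5′ to 3′ on the strand of the gene. Capitals mark the motif letters searched for, on either strand.
Mrps11, chr7:78782881-78783180, plus strand: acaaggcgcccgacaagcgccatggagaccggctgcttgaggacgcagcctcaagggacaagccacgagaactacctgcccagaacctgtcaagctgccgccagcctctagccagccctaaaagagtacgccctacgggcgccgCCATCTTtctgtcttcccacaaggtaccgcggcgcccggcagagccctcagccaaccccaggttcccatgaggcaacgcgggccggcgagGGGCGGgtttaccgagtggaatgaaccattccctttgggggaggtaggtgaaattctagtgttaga
Mrpl44, chr1:79775768-79776067, plus strand: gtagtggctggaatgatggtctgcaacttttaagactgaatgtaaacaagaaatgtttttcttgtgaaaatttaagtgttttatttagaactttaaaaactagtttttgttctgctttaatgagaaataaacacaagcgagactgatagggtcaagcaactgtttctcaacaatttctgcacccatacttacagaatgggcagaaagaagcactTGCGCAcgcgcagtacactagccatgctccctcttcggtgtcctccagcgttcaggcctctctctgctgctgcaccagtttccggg
Mrpl52, chr14:54426659-54426958, plus strand: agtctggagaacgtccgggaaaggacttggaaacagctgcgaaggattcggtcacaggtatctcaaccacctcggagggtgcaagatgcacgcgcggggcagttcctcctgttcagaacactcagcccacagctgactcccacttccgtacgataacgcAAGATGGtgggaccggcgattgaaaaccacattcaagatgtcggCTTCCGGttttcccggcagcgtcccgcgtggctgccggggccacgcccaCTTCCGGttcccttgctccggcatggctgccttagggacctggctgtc
Mrps18b, chr17:35916391-35916690, minus strand: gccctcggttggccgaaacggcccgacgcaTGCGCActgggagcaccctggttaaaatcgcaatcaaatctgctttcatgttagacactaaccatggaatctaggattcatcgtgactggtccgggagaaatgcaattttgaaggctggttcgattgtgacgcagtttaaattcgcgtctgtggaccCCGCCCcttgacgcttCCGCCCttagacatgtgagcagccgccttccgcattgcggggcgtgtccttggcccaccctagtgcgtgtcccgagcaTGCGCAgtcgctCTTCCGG
The capitals are YY1 and Sp1 letters in Mrps11 and the core of an NRF1 site in Mrpl44. In Mrpl52 they are YY1 letters and a pair of sites for GABPA and other ETS factors. Mrps18b holds NRF1 cores, Sp1 boxes and 1 ETS site. NRF1 and GABPA, also named NRF2, are known as activators of nuclear genes for mitochondrial proteins.

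RefSeq gave a promoter for 60 of the 68 genes and for 4571 genes of the table. The ETS letters CCGGAAG stood in 24 of the 60 promoters (40.0%) and in 25.3% of all promoters. The NRF1 core TGCGCA stood in 17 (28.3%, against 17.4% of all), and the YY1 letters AAGATGG in 12 (20%, against 10.2%). The Sp1 box GGGCGG was found in 48.3% of these promoters and in 68.9% of all. The E-box CACGTG and the TATA letters TATAAA each stood in 5 promoters (8.33%), against 13.3% and 9.47% of all. These shares describe letters in a window of 300 bases and were not tested. The GC content had a median of 58.2% here and 60.3% over all genes.

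**Figure D1:**
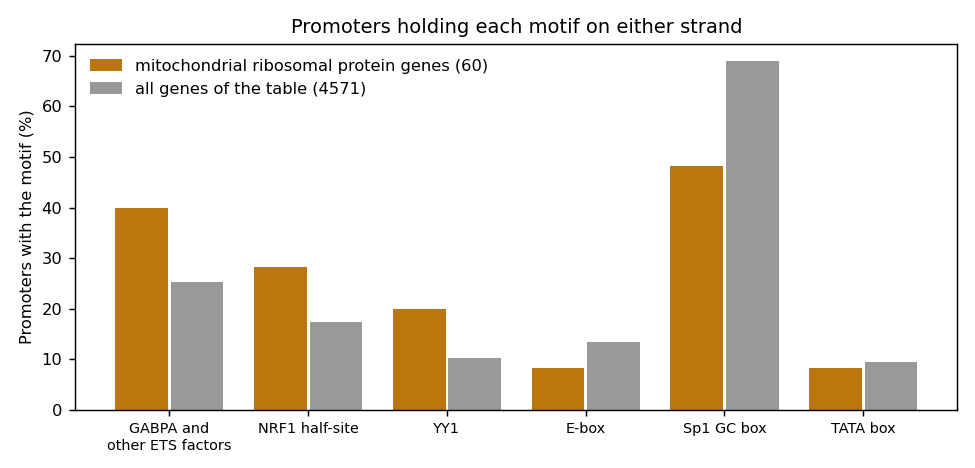
Share of promoters (%) that hold each motif on either strand, for the 60 mitochondrial ribosomal protein genes (brown) and for the 4571 genes of the table with a promoter (grey). The ETS, NRF1 and YY1 bars are higher for the mitochondrial ribosomal protein genes, with 40.0% against 25.3% for the ETS letters, and the Sp1 bar is lower.

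The 68 genes lie on 17 chromosomes of GRCm38, with 11 genes on chromosome 11 and 8 on chromosome 17. In the GENCODE vM21 annotation 31 of them (45.6%) have a protein-coding gene on the other strand whose start lies within 1000 bases of their own. Among the 5587 genes of the table found there 1061 (19.0%) have one. In 16 members (23.5%, against 11.5% of the genes of the table) the pair lies apart and runs away from each other, and in 15 (22.1%, against 7.52%) the genes overlap at their starts. Mrps11 (chromosome 7, 78783119 to 78792989) overlaps by about 412 bases with Mrpl46, another member. Mrpl36 (chromosome 13, 73328513 to 73332178) overlaps by about 29 bases with Ndufs6, a subunit of respiratory complex I, and Mrpl44 (chromosome 1, 79776018 to 79781445) by about 125 bases with Wdfy1. Mrps18b (chromosome 17, 35910379 to 35916389) lies apart, 45 bases from Ppp1r10. Mrpl52 (chromosome 14, 54426909 to 54429756) has no such neighbour. The sources used here do not state whether fragments were assigned by strand, and reads from overlapping genes may then be shared.

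All 68 genes were expressed at low to moderate levels. Their means over the 64 libraries ran from 10.6 to 75.4 adjusted FPKM with a median of 27.1, next to a median of 26.3 over all genes. The authors kept only genes with a mean of at least 10, so that the bottom of this range was set by their filter. Means under 20 were found for 25 genes, of 20 to 50 for 36 and over 50 for 7. Mrpl23 (75.4), the uL23 protein at the exit of the peptide tunnel, was the most abundant. Mrps21 (61.1), Mrpl33 (57.3), Mrpl52 (56.6) and Mrpl42 (56.6) followed, and these 4 were close to each other. The lowest were Mrps22 (12.4) and Mrps35 (10.95) of the small subunit and Mrpl41 (10.6) of the large subunit. No library had a value of 0 for any of the 68 genes.

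The 3 genes that descend from bacterial S18 were similar in level, with Mrps18c of the small subunit at 50.3, Mrps18a, now placed in the large subunit, at 44.9 and Mrps18b of the small subunit at 41.2. Only Mrps18c is counted among the bacterial homologues here, since the current protein names give the other 2 as mitochondrial. Mrpl12 and Mrpl10, which form the stalk that recruits translation factors, stood at 28 and 24.6. Mrpl58, a peptidyl-tRNA hydrolase that has become a part of the ribosome and releases stalled chains, stood at 29.9. Together the 68 genes made up between 0.317% and 0.495% of the summed value of a library.

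**Figure D2:**
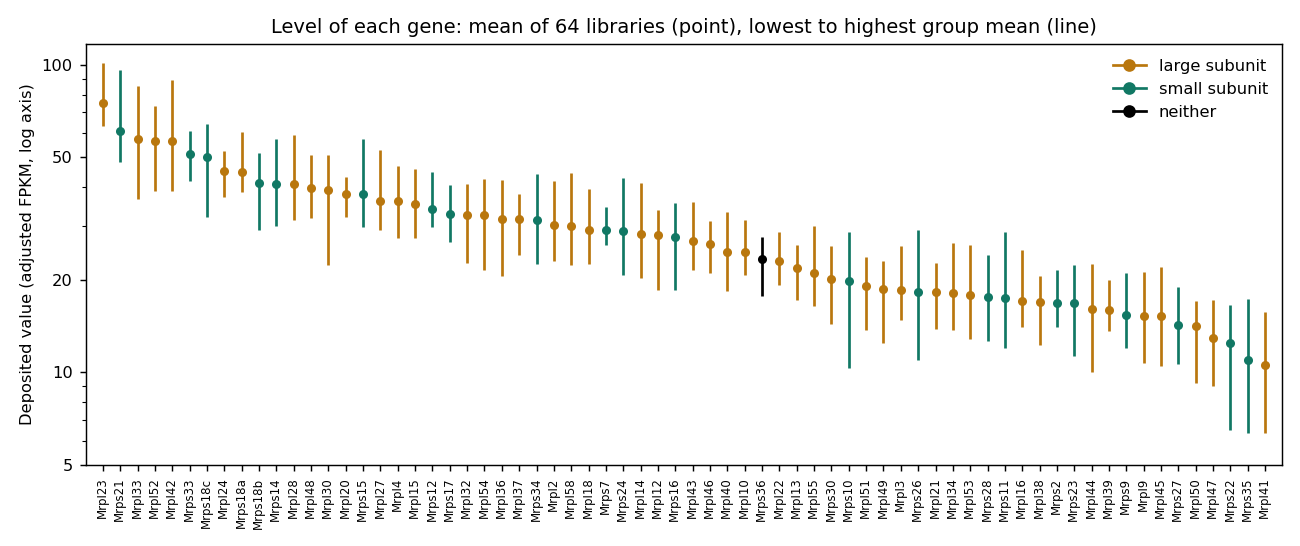
Level of each of the 68 genes in adjusted FPKM on a log axis, as the mean of 64 libraries (point) with a line from the lowest to the highest of the 17 group means, coloured by subunit. Genes of both subunits are spread over the whole range from Mrpl23 at 75.4 to Mrpl41 at 10.6, and most lines span less than a doubling.

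Between the lowest and the highest of the 14 PBS groups the mean of a gene differed by a median of 1.81 times, with a smallest value of 1.26 and a largest of 2.77. Within groups the genes rose and fell together only weakly. The residuals from the group means over the 64 libraries had a median pairwise Pearson's r of 0.185 among the 68 genes, against 0.634 among 80 genes of the cytosolic ribosome, 0.422 among 76 genes of the respiratory chain and ATP synthase and 0.0098 among all genes. These correlations describe genes measured in the same libraries and share their depth and scaling. The cytosolic ribosomal genes were also more abundant, with a median mean of 153. The within-group SD on the log2 scale had a median of 0.34 for the 68 genes and 0.32 for all genes. Mrpl15, Mrps33 and Mrps21 followed the other members most closely (median r 0.343, 0.335 and 0.331), and Mrps2, the uS2 protein, ran against them (median r −0.278).

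In females the mean log2 level of the 68 genes was highest at 24 months and lowest at 9 and 12 months. The 3-month mice averaged 4.83 ± 0.09 (SD, n = 4), and the values were 4.61 ± 0.08 (n = 2), 4.54 ± 0.16 (n = 3) and 4.55 ± 0.09 (n = 4) at 6, 9 and 12 months. The 14-month mice averaged 4.62 ± 0.18 (n = 5), the 16-month mice 4.73 ± 0.08 (n = 5) and the 24-month mice 5.02 ± 0.05 (n = 3). The 24-month mice, at 4.97, 5.06 and 5.02, all lay above the 3-month mice, at 4.73, 4.79, 4.91 and 4.90. The mean of all genes moved in the same way, from 5.15 ± 0.02 at 3 months to 4.96 ± 0.02 at 9 months and 5.15 ± 0.05 at 24 months. At 24 months the members lay 0.14 ± 0.07 below the mean of all genes, and at 3 months 0.32 ± 0.08 below it.

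In males the mean log2 level was lowest at 6 to 12 months. The level of the members was 4.74 ± 0.15 (SD, n = 4) at 3 months, 4.61 ± 0.23 (n = 4) at 6, 4.64 ± 0.21 (n = 4) at 9 and 4.61 ± 0.04 (n = 2) at 12 months. The older groups of 16, 19 and 24 months averaged 4.83 ± 0.05 (n = 4), 4.85 ± 0.14 (n = 5) and 4.78 ± 0.21 (n = 4). The 24-month males ranged from 4.51 to 5.03 and the 3-month males from 4.61 to 4.93, so that the groups overlapped. The mean of all genes in males was 5.00 ± 0.01 at 3 months, 5.08 ± 0.04 at 9 and 5.13 ± 0.05 at 24 months. Relative to it the members were at −0.26 ± 0.15 at 3 months and at −0.35 ± 0.17 at 24 months.

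**Figure D3:**
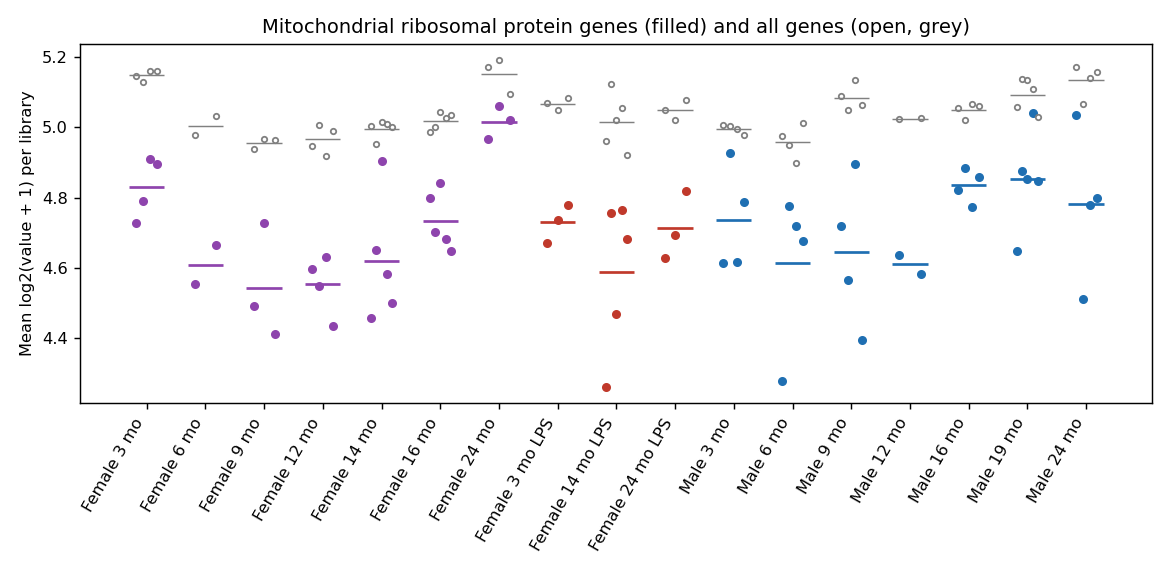
Mean of log2(value + 1) in each library, over the 68 mitochondrial ribosomal protein genes (filled points, females purple, males blue, LPS red) and over all genes (open grey points), with a bar at the mean of each group. The 3 females of 24 months, at 4.97 to 5.06, lie above all females of 3 months, and the LPS females of 24 months, at 4.63 to 4.82, lie below them.

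None of the 68 genes passed the threshold in females of 24 against 3 months (2.09% of all genes did). When these 2 groups were fitted alone, 4 members were called, all higher. The share of all genes called in that fit is not given here, so this count has no background beside it. With limma at an unadjusted p under 0.05 there were 8 higher and 1 lower (9 of 68, 13.2%), against 18.9% of all genes. The smallest adjusted p was 0.0764. The fold changes leaned upward. They were positive in 51 of 68 genes, 32 of 45 of the large and 19 of 22 of the small subunit, where 48.1% of all genes were positive. The median of the members on the log2 scale was 0.23, where that of all genes was −0.02. In 19 genes (27.9%) every 24-month value lay above every 3-month value and in none below it, where 24.3% of all genes did not overlap and 13.1% lay higher. The median of the members stayed positive after either scaling of the libraries, at 0.16 and 0.24. All 4 measured T and NK cell markers were called higher in these mice, with sums of 249 to 376 against 48 to 57, and 1 of 11 microglial and 2 of 13 neutrophil markers were called lower. The part of this in the members' values was not tested.

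The members with the largest increases were Mrpl54, Mrpl33, Mrps10 and Mrpl27. Mrpl54, a protein specific to mitochondria, stood at 50, 39 and 39 at 24 months and at 19, 16, 29 and 33 at 3 months, without overlap (log2 difference 0.84, SE 0.26, limma adjusted p = 0.0779). Mrps10, the uS10 protein of the small subunit head, stood at 33, 24 and 29 against 12, 16, 20 and 17 (0.79, standard error 0.24, adjusted p = 0.0764). Mrpl33, the bL33 protein, stood at 75, 101 and 79 against 47, 35, 61 and 48 (0.83, standard error 0.27, adjusted p = 0.0831). In each of these genes the 24-month mice were higher than all 3-month mice, and none was called. The lowest fold changes were those of Mrps22, Mrpl47 (−0.45) and Mrpl10 (−0.44), whose groups overlapped. Mrps22 was at −1.12 (standard error 0.53, adjusted p = 0.242) through 1 library. Its 24-month values were 0.13, 17 and 8 against 11, 10, 15 and 10, and without that library the difference was 0.044.

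At the ages between, the members lay below 3 months, as did the genes in general. The median log2 fold change of the members was −0.22 at 6, −0.32 at 9, −0.28 at 12, −0.24 at 14 and −0.11 at 16 months, where the medians over all genes were −0.16, −0.19, −0.19, −0.19 and −0.18. Scaling moved the median of all genes by 0.10 to 0.20 at these ages. Relative to it the members were −0.13 at 9 months and −0.09 at 12 months after scaling to the same total, and 0.06 at 16 months.

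At 6 and 9 months no member was called (0.301% and 2.66% of all genes were). At an unadjusted p under 0.05 limma gave 5 of 68 (7.35%, against 11.4% of all genes) at 6 months and 15 (22.1%, against 21.3%) at 9 months. The smallest adjusted p at 9 months, 0.0648, was that of Mrpl36, the bL36 protein, which stood at 25, 18 and 25 against 34, 38, 38 and 37 at 3 months. Without replicate 2 of the 9-month females 3 members were called, and without replicate 1 there was 1. With the 2 groups of a comparison fitted alone 3 members were called at 6 months and 2 at 9 months, all lower, with no share of all genes given for these fits.

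At 12 months 3 members were called, all lower (4.41%, against 9.07% of all genes called and 7.76% called lower). Mrps26, a protein of the small subunit that is specific to mitochondria, stood at 13, 10, 9 and 12 against 22, 23, 28 and 20 (log2 difference −1.02 with a standard error of 0.28, limma adjusted p = 0.0237). Mrpl51 stood at 12, 16, 12 and 15 against 21, 20, 22 and 23 (−0.62, standard error 0.16, adjusted p = 0.0172). Both fell without overlap between the groups. Mrpl50 stood at 5, 13, 8 and 11 against 17, 21, 17 and 13 (−0.86, standard error 0.26, adjusted p = 0.0316), with overlap. After either scaling none of these 3 was called and Mrps18b was called as higher. The count was 0 without replicate 3, 1 without replicate 1 and 5 without replicate 4 of the 12-month females, and 1 without replicate 2 or 3 of the 3-month females.

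At 14 months Mrpl18 was the only member called, and it was lower (1.47%, against 3.31% of all genes called and 2.11% called lower). Mrpl18, the uL18 protein, stood at 22, 20, 29, 31 and 13 against 35, 38, 35 and 50 at 3 months (log2 difference −0.80 with a standard error of 0.23, limma adjusted p = 0.0456). The groups did not overlap, but the call was lost after either scaling and without any of the 3-month mice. It was also lost without replicate 1, 2 or 5 of the 14-month mice, and without replicate 3 the count was 4. It was also 4 when the 2 groups were fitted alone, 1 higher and 3 lower, with no share of all genes given for that fit.

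At 16 months 3 members were called (4.41%, against 9.01% of all genes). Mrpl52 stood at 46, 65, 69, 62 and 65 against 36, 40, 38 and 41 (log2 difference 0.64 with a standard error of 0.18, limma adjusted p = 0.0255). The 3-month females had the lowest Mrpl52 mean of the 14 PBS groups (38.8). Mrpl54 stood at 44, 33, 47, 35 and 37 against 19, 16, 29 and 33 (0.72, standard error 0.23, adjusted p = 0.0427), touching at 33. Mrpl37 was lower, at 31, 24, 29, 18 and 18 against 39, 42, 39 and 27 (−0.61, standard error 0.18, adjusted p = 0.0303). Mrpl52 and Mrpl54 were called after either scaling, and Mrpl37 was not. The count was 0 without replicate 1 or 2 of the 3-month mice or replicate 5 of the 16-month mice. It was 1 without replicate 3 of the 3-month or replicate 4 of the 16-month mice and 1 with the replicate number as a block. All 16-month females and none of the 3-month females lack values between 0 and 1 in the table, and this difference between the libraries and the age cannot be told apart.

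Over the 7 ages of females together, the F-test of limma called 9 of the 68 (13.2%, against 14.8% of all genes). At the age farthest from 3 months 2 of them were higher, Mrps10 and Mrpl54, both at 24 months. Mrps10 was called as lower without replicate 1 of the 3-month mice (−0.78) and without replicate 2 of the 9-month mice (−0.93), where another age lay farthest. The other 7 were lower there. They were Mrpl42 (at 6 months), Mrps34 (6 months), Mrpl30 and Mrps11 (9 months), Mrps26 and Mrpl51 (12 months) and Mrpl37 (16 months). Mrpl30 turned to 0.46 after median-ratio scaling. Of the lower genes 5 are specific to mitochondria, and Mrpl30 and Mrps11 have bacterial homologues.

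Among these genes Mrpl42, Mrps34 and Mrpl51 were low in the middle of life and higher at both ends. Mrpl37 was near its 3-month mean of 36.8 at 14 months (35.4) and lowest at 16 months (24). Mrpl30 dipped at 9 months (22.3, against 34.8 at 3 months). Mrpl42, a large subunit protein, had means of 67.3, 39.5, 41.7, 47, 51, 67 and 89.3 from 3 to 24 months. Mrps34, of the small subunit, had means of 36, 22.5, 26.7, 29.5, 27.6, 31.8 and 44. Mrps26 differed in shape, with 23.3, 22, 24, 11, 12.2, 15.4 and 29. Thus Mrps26 was still at its 3-month level at 9 months, where Mrpl42 and Mrps34 were low. Mrps10 had means of 16.3, 18.5, 10.3, 18, 18.6, 20 and 28.7, and Mrpl54 of 24.3, 24, 25.3, 28.8, 24, 39.2 and 42.7. Mrps10 and Mrps26 were called after both scalings and Mrpl54 after the median-ratio scaling. The other 6 lost the call after both. Leaving out single mice gave 5 to 15 calls, with 5 without any one of replicates 2 and 3 of the 3-month, 1 of the 6-month, 5 of the 16-month and 1 and 2 of the 24-month mice, and 15 without replicate 3 of the 14-month mice.

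The low mid-life values were accompanied by other differences in the libraries. The summed neutrophil markers ran from 7057 to 18680 in 3-month females and from 495 to 6539 at 6 to 14 months, and the summed microglial markers from 26070 to 27730 and from 15480 to 21910. The 13 neutrophil markers had a median log2 fold change of −2.52 at 9 months, with 4 called lower. The part of these differences in the members' values was not tested.

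In males no member was called at any age against 3 months. The shares of all genes called were 0% at 6, 0.0354% at 9, 0.903% at 12, 6.29% at 16, 3.05% at 19 and 2.85% at 24 months. At an unadjusted p under 0.05 limma gave 7 members at 6 months (10.3%, against 8.15% of all genes), 2 at 9 (2.94%, against 11.8%) and 6 at 12 months (8.82%, against 11.5%). It gave 4 at 16 (5.88%, against 18.9%), 3 at 19 (4.41%, against 12.7%) and 2 at 24 months (2.94%, against 13.2%). The median log2 fold changes were small, from −0.14 at 12 months to 0.12 at 19 months. Those of 16, 19 and 24 months were negative after scaling to the same total, while those of 16 and 19 months were positive after median-ratio scaling. Scaling to the same total moved the median of all genes by −0.15 to −0.11 at these ages. Relative to the median of all genes after this scaling, the members were −0.04, −0.18, −0.13, 0.10, 0.05 and −0.04 at 6, 9, 12, 16, 19 and 24 months. Without scaling, the median at 9 months was −0.09 for the members and 0.09 for all genes. Values between 0 and 1 were held by 1 library of the 12, 16, 19 and 24-month males together, by 2 of 4 of the 3-month males and by all of the 6 and 9-month males. No member was called among the libraries without such values either.

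The males of 24 months differed most from those of 3 months in Mrpl4, Mrpl30 and Mrpl54. Mrpl4, the uL4 protein, stood at 47, 36, 44 and 34 against 32, 28, 19 and 30 without overlap (log2 difference 0.56 with a standard error of 0.21, limma adjusted p = 0.181). Mrpl30 stood at 57, 55, 35 and 49 against 30, 38, 40 and 28 (0.51, standard error 0.18, adjusted p = 0.147), and it was called without replicate 3 of the 24-month mice. Mrpl54 stood at 44, 39, 31 and 33 against 26, 28, 23 and 26 (0.49, standard error 0.26, adjusted p = 0.427). Mrpl54 was thus also above the 3-month males, with no overlap and no call. At the other end were Mrps27 (−0.38), Mrpl15 (−0.36) and Mrps11 (−0.35), with overlap. In 3 genes (4.41%) the groups did not overlap, all higher, against 7.7% of all genes and 6.16% in that direction. At 24 months the males had 7 of 13 neutrophil, 4 of 6 monocyte and 4 of 4 T and NK cell markers called higher, and the part of this in the members' values was not tested.

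The F-test over the 7 ages of males called no member (8.36% of all genes were called). Limma gave 7 members at an unadjusted p under 0.05 (10.3%, against 26.7% of all genes). Mrpl33 and Mrpl30 had an adjusted p of 0.0022 and 0.0386 with folds under 1.5 against 3 months. Mrpl33 had means of 55.5, 41, 36.5, 61, 79.5, 74.6 and 66.3 from 3 to 24 months, low at 6 and 9 months and high from 16 months on. It was called after both scalings, and leaving out single mice gave 1 or 2 called members in 11 of 27 fits.

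The change from 3 to 24 months did not differ between the sexes beyond the threshold for any member (0.0177% of all genes did). At an unadjusted p under 0.05 limma gave 3 of 68 (4.41%, against 8.57% of all genes). The largest positive difference was that of Mrpl27, which was higher by 0.89 (standard error 0.31, limma adjusted p = 0.448) in the change of females. Mrps11 was at 0.78 (standard error 0.38, adjusted p = 0.565). Mrps22, which rests on the value of 0.13 named above, was at −1.40 (standard error 0.65, adjusted p = 0.538). The standard errors of these differences had a median of 0.34 on the log2 scale.

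**Figure D4:**
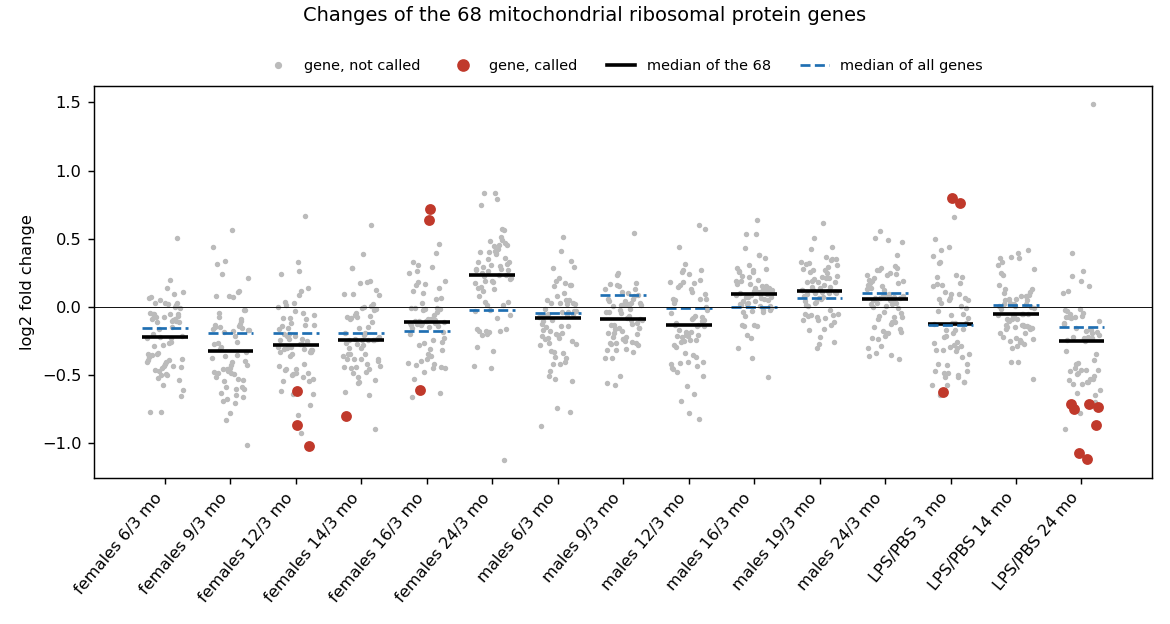
Log2 fold change of each of the 68 genes in 15 comparisons (grey points, red where called), with the median of the 68 (black bar) and of all 5647 genes (dashed blue bar). The median of the 68 is above that of all genes in females at 24 months and below it in LPS against PBS at 24 months, where 7 genes are called lower, while no gene is called in males.

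After LPS at 3 months 2 members were higher and 1 was lower (3 of 68, 4.41%, against 11.2% of all genes). Mrpl52 stood at 64, 69 and 71 in the LPS mice and at 36, 40, 38 and 41 in the PBS mice (log2 difference 0.80 with a standard error of 0.21, limma adjusted p = 0.013). Mrps18b stood at 45, 60 and 50 against 34, 29, 25 and 32 (0.76, standard error 0.20, adjusted p = 0.0139). The groups were apart in both genes. Among the 14 PBS groups, the 3-month females had the lowest mean of Mrpl52 (38.8, where the highest was 73.3). For Mrps18b they were near the lowest, at 30 in a range of 29 to 49.5. Mrpl34, the bL34 protein, fell from 20, 25, 24 and 20 to 11, 19 and 13 (−0.63, standard error 0.20, adjusted p = 0.0422). Mrpl52 and Mrps18b were called after either scaling, and Mrpl34 was not. Mrpl52 lost the call without replicate 2 or 3 of the LPS mice (limma adjusted p = 0.057 and 0.0591). Mrps18b lost it without replicate 2 of the LPS mice (adjusted p = 0.0965). Among the fits that left out 1 mouse of the comparison, Mrpl34 was called only without replicate 2 of the LPS mice.

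The median log2 fold change of the 68 genes at 3 months was −0.12, next to −0.14 over all genes. The groups did not overlap in 16 members (23.5%, against 33.9% of all genes). Of these 13 were lower and 3 higher, where 1225 of all 5647 genes lay lower without overlap and 691 higher. Mrpl28, the bL28 protein, and Mrpl43 were just outside the threshold. Mrpl28 stood at 29, 31 and 34 against 47, 45, 54 and 53 (−0.65, standard error 0.22, limma adjusted p = 0.0505). Mrpl43 was at −0.57 with an adjusted p of 0.0362 and a fold just under 1.5. Mrpl54 stood at 36, 37 and 39 against 19, 16, 29 and 33 (0.66, adjusted p = 0.181). The count was 1 without replicate 2 or 3 of the LPS mice. It was 5 when the 2 groups were fitted alone, with no share of all genes given for that fit. In these LPS mice the summed neutrophil markers ran from 2174 to 3764, against 7057 to 18680 in PBS mice, and 9 of 13 were called lower, as were 5 of 11 microglial markers. Their part in the members' values was not tested.

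After LPS at 14 months no member was called (1.81% of all genes were). At an unadjusted p under 0.05 limma gave 2 members (2.94%, against 15.7% of all genes). In no member were the groups apart (2.66% of all genes were). The median log2 fold change was −0.06, next to 0.02 over all genes. Mrpl52 stood at 49, 77, 55, 82 and 81 against 52, 31, 68, 47 and 66 (0.40, standard error 0.17, limma adjusted p = 0.253), with overlap. The widest fold changes were those of the low genes Mrps22 (0.42) and Mrps35 (−0.53). Mrpl4 (0.37), Mrpl40 (−0.41) and Mrpl53 (−0.41) lay between. The members of the LPS mice varied more than at the other ages, with a mean log2 level of 4.59 ± 0.22 (SD, n = 5) and a range from 4.26 to 4.77.

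After LPS at 24 months 7 members were lower and none was called higher (10.3%, against 9.7% of all genes called and 5.44% called lower). They were Mrps11, Mrps15 and Mrps34 of the small subunit and Mrpl28, Mrpl36, Mrpl44 and Mrps30 of the large subunit. The median log2 fold change of the 68 genes was −0.25, next to −0.15 over all genes. Of the 68, 60 were negative and 8 positive, where 38% of all genes were positive. The groups were apart in 20 members (29.4%, against 26.5% of all genes). Of these 19 were lower and 1 higher, where 970 of all 5647 genes lay lower without overlap and 524 higher. The small subunit genes had a median of −0.43 and those of the large subunit of −0.24, and the mitochondria-specific genes of −0.46 and the bacterial homologues of −0.22. These differences between classes of genes were not tested.

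Mrps11, the uS11 protein of the small subunit platform, stood at 14, 11 and 13 in the LPS mice and at 26, 26 and 34 in the PBS mice of 24 months (log2 difference −1.11 with a standard error of 0.22, limma adjusted p = 0.00393). Mrpl44, a mitochondria-specific protein with an RNase III fold, stood at 12, 7 and 11 against 22, 21 and 22 (−1.07, standard error 0.26, adjusted p = 0.012). In both genes the highest LPS value lay far below the lowest PBS value. Both overlap a gene on the other strand, as given above. Of the 7 genes these 2 were called after both scalings. Mrps11 was called in every fit that left out 1 mouse of the comparison. Mrpl44 missed the threshold without replicate 2 of the LPS mice (adjusted p = 0.0506).

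The other 5 members fell by 0.71 to 0.87 on the log2 scale. Mrps30, now placed in the large subunit, stood at 18, 8 and 17 against 29, 25 and 23 (−0.87, standard error 0.25, limma adjusted p = 0.029). Mrpl28 stood at 38, 32 and 37 against 59, 58 and 60 (−0.71, standard error 0.23, adjusted p = 0.0487). Mrps15, the uS15 protein, stood at 35, 35 and 33 against 48, 56 and 68 (−0.71, standard error 0.22, adjusted p = 0.043). No LPS value reached a PBS value in any of them. Mrps34 (−0.73, adjusted p = 0.034) and Mrpl36 (−0.75, adjusted p = 0.0404) had 1 LPS mouse each, at 34 and 37, not far below the lowest PBS values of 39 and 38. These 5 were lost after either scaling, with adjusted p-values between 0.0529 and 0.121.

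Among the 14 PBS groups, the females of 24 months had the highest mean of Mrps11, Mrps15, Mrps34, Mrpl28, Mrpl36 and Mrps30. For Mrpl44 the highest were the 3-month females, at 22.5 against 21.7 at 24 months. The 24-month PBS values of Mrps11 (26 to 34) and Mrps15 (48 to 68) lay above those of the PBS females of 3 months (19 to 24 and 44 to 47). The same 24-month mice are the aged group of the ageing comparison. The LPS mice of 24 months were at 12.7 ± 1.53 (SD, n = 3) for Mrps11 and those of 3 and 14 months at 16.7 and 14.2, next to 21 and 15.6 in their PBS controls. The count was 2 without replicate 1 and 3 without replicate 2 of the PBS mice, and 4, 3 and 6 without replicate 1, 2 and 3 of the LPS mice. When the 2 groups were fitted alone no member was called. Among the other cell markers 2 of the 4 T and NK cell genes were called lower and 3 of 13 neutrophil genes higher after LPS at 24 months. The summed T and NK cell markers ran from 75 to 250 in LPS mice and from 249 to 376 in PBS mice, and their part was not tested.

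**Figure D5:**
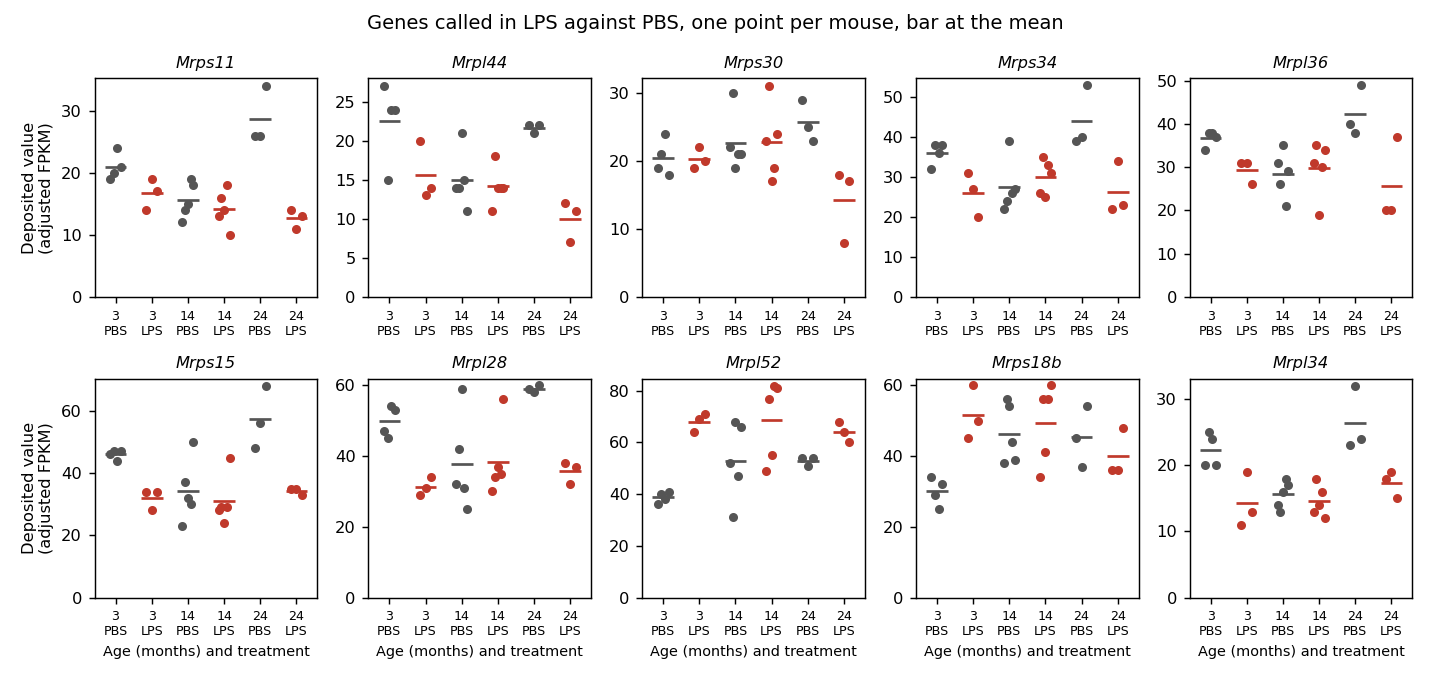
Values (adjusted FPKM, axis from 0) of the 10 members called in an LPS comparison, 1 point per mouse and a bar at the group mean, for PBS (grey) and LPS (red) at 3, 14 and 24 months. Mrps11 and Mrpl44 are at 7 to 14 in the LPS mice of 24 months and at 21 to 34 in the PBS mice, while Mrpl52 at 3 months is at 64 to 71 against 36 to 41.

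A few members stood higher after LPS at 24 months without being called. Mrpl52 was at 68, 64 and 60 against 54, 51 and 54, with no overlap (0.27, limma adjusted p = 0.451). Mrpl32 was at 44, 32 and 47 against 31, 35 and 26 (0.40, adjusted p = 0.314). The highest fold change, of Mrps22 (1.49, standard error 0.55, adjusted p = 0.0787), rests on the PBS value of 0.13 named above. Mrpl14, with 25, 14 and 29 against 38, 46 and 40, was just outside the threshold on the lower side (−0.89, adjusted p = 0.0509).

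The response to LPS did not differ between ages beyond the threshold in any member. For 14 against 3 months 0.301% of all genes were called, and at an unadjusted p under 0.05 limma gave 4 members (5.88%, against 10.2% of all genes). For 24 against 3 months 0% of all genes were called, and limma gave 6 members (8.82%, against 11.6%). The lowest adjusted p was that of Mrps18b, whose response was smaller by −0.94 (standard error 0.30, limma adjusted p = 0.209) at 24 than at 3 months. Mrps18b stood at 36, 36 and 48 after LPS and at 45, 37 and 54 after PBS at 24 months. The standard errors of these differences had a median of 0.36 on the log2 scale.

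Of the 6 genes called lower at 24 months for which RefSeq gave a promoter, none held the ETS letters CCGGAAG, and 2 each held the NRF1 core, the YY1 letters and the Sp1 box. Mrpl52 and Mrps18b, called higher at 3 months, both hold ETS letters in the promoters printed above. These are descriptions of a few genes chosen by their calls, and a link to the response was not tested. No match says only that the letters are not in the window.

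Other genes of mitochondrial translation were measured in part. The list of proteins of the mitochondrial ribosome with other symbols had 5 of 6 genes in the table, the translation factors 5 of 13, the assembly and rRNA modification factors 9 of 24, transcription and RNA processing 9 of 17 and the mitochondrial aminoacyl-tRNA synthetases 7 of 20. In females at 24 against 3 months and in males at 24 against 3 months none of these 5 lists had a called gene. After LPS at 3 months Malsu1, an assembly factor of the large subunit, rose from 11.5 ± 2.65 (SD, n = 4) to 23 ± 4.36 (SD, n = 3) with a limma adjusted p of 0.0079. Gatc, of the complex that forms glutaminyl-tRNA in mitochondria, fell from 42.8 ± 5.44 to 24.7 ± 4.04 (adjusted p = 0.0333). After LPS at 24 months Mtif3, an initiation factor, fell from 23.3 ± 7.37 to 12.7 ± 3.21 (adjusted p = 0.0421). Tars2, the threonyl-tRNA synthetase of mitochondria, fell from 26 ± 7 to 14.7 ± 3.79 (adjusted p = 0.0382).

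The ribosome of the cytosol had more members called with age in females. Of 80 cytosolic ribosomal protein genes 19 (23.8%) were called higher in females at 24 against 3 months, where 2.09% of all genes were called. Their median difference was 0.54 on the log2 scale. In males 2 (2.5%) were called higher, where 2.85% of all genes were called, and the median was 0.41. With a median mean of 153 these genes were also more abundant than the 68. The respiratory chain and ATP synthase genes had medians of 0.37 in females and 0.16 in males and no call among 76. After LPS at 24 months the cytosolic ribosomal genes had a median of −0.14 and no call, and the respiratory chain genes a median of −0.29 with 1 called lower, the complex I subunit Ndufv3. Among the 3 measured regulators of nuclear mitochondrial genes Myc was higher after LPS at 3 months (59.7 ± 10.8 against 27.2 ± 0.957, limma adjusted p = 0.00136) and at 14 months (90.2 ± 16.2 against 50 ± 11.5, adjusted p = 0.0118). Of 18 genes of mitochondrial protein import Tomm20, a receptor of the outer membrane, was higher (0.63, adjusted p = 0.042) and Timm21, of the inner membrane translocase, lower (−0.70, adjusted p = 0.0426) after LPS at 3 months, and none was called in the other 4 of these comparisons. Differences between the lists were not tested.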

How the data were processed

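Reads were cleaned by the authors (SOAPnuke) and aligned to the mouse genome mm10 (HISAT2 2.0.4) and to coding transcripts (Bowtie2 2.2.5), and RSEM 1.2.12 gave FPKM. Batches were then adjusted by the authors with ComBat_seq, and the lowest mean of a gene in the table is 10. The deposited values are treated as scores. They are adjusted FPKM, all whole numbers but for 297, and not counts. The batches are not given in the sources used here, values between 0 and 1 are absent from 21 libraries, and no depth is known. Counting intervals and count tests were therefore not used.

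Values were taken as log2(value + 1) without further scaling and compared with limma 3.58.1 in R 4.3.3 (moderated variances with a trend), with p-values adjusted by Benjamini and Hochberg over 5647 genes. The 7 female, the 7 male and the 6 LPS and control groups were fitted apart, and the sexes in a joint fit of 12 PBS groups, those of ages present in both. The members, lists and tests were chosen with earlier results of these data known. Named are all 19 called members, the 3 highest and the 3 lowest fold changes of 5 main comparisons, the 5 highest and 3 lowest levels and members of known role. Others were named after their values were seen. Promoters and motifs were read with Python 3.11.15 from RefSeq on GRCm38.p6, and positions from GENCODE vM21. The fits were tested on simulated data. Alternatives were pseudocounts of 0.5 and 5, a minimum mean of 20, 2 scalings, other thresholds, the 2 groups of a comparison fitted alone, a block on the replicate number, and fits without each library in turn.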

Additional observations from a re-analysis of the deposited data

Results flagged for a closer look

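In 142 groups of values of the named genes, 1 value far from the others of its group was found in 3, and chance gives about 1 in 20. Mrpl23 was at 108 in replicate 5 of the 14-month LPS females, where the other 4 lay between 57 and 65. Mrps18c was at 51 in replicate 3 of the 3-month PBS females, next to 43 to 44 in the others. Mrps21 was at 78 in replicate 2 of the 3-month males, next to 48 to 49. None of these values was left out, and none of these genes was called in the comparisons concerned.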

How the results depend on the processing

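The counts of called members depended on the setting in the following ways, and the causes were not tested except where fewer libraries or genes enter. With all libraries scaled to 1 total the counts were 2 for LPS at 24 months, 0 and 1 for females of 14 and 12 months, 2 for females and 1 for males across ages. After median-ratio scaling they were 2, 0, 1, 3 and 2. With the study's rule, an unadjusted p under 0.05 and a fold over 1.5, they were 12 and 5 for LPS at 24 and 3 months, 5, 5, 5, 10, 9 and 3 for females of 24, 16, 14, 12, 9 and 6 months, and 1, 1, 5 and 3 for males of 19, 16, 12 and 6 months. With the 2 groups fitted alone they were 0 and 5 for LPS at 24 and 3 months and 4, 4, 2 and 3 for females of 24, 14, 9 and 6 months. The shares of all genes called in these fits are not given here. With only genes of a mean of at least 20 they were 2, 0 and 1 for females of 14 and 12 months and males across ages. A pseudocount of 5 gave 5 for females across ages, and the adjusted p alone gave 2 for males across ages. Medians of the log2 fold changes moved to 0.16, −0.016, −0.091, −0.11, −0.14 and −0.078 for females of 24, 16, 14, 12, 9 and 6 months, to −0.029 and −0.027 for males of 19 and 16 months and to −0.026 and −0.084 for LPS at 3 and 24 months with the same total. With median-ratio scaling they moved to 0.047, −0.068, −0.085, −0.15 and −0.061 for females of 16, 14, 12, 9 and 6 months and to −0.020 and −0.13 for LPS at 3 and 24 months. Leaving out each library in turn gave 2 to 6 calls for LPS at 24 months, 1 to 3 for LPS at 3 months, 0 to 3, 0 to 4, 0 to 5 and 0 to 3 for females of 16, 14, 12 and 9 months, 5 to 15 for females across ages, 0 to 1 for males of 24 months and 0 to 2 for males across ages, where replicates 2 and 4 of the 6-month and 3 of the 9-month males each gave 2.

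Directions turned for Mrpl30 in females across ages, at 0.46 with median-ratio scaling, and when a library was left out for Mrps22 in females of 24 months (−1.95 to 0.044) and for Mrps10 across ages (−0.93 to 0.91, with −0.78 and −0.93 without replicate 1 of the 3-month and replicate 2 of the 9-month mice). Of the alternative values of single genes 610 kept direction and side of the threshold, 187 kept only the direction, 6 passed anew and 4 turned.

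The replicate numbers of the sample titles showed no pairing of the libraries. Some deposited columns carry another number than the title, and pairing by the column numbers was not tested. Residuals of libraries with the same number had a median correlation of 4.26e-05 in females, −0.0044 in males and 0.0139 in the LPS experiment, and 5 of 26, 7 of 27 and 4 of 23 libraries correlated best with their own number. With the replicate number as a block the counts were 1 for females of 16 months and 1 for females of 9 months. Groups held 2 to 5 mice. The lowest gene means lie near the authors' minimum mean of 10. Single values fall below it, down to 0.13 for Mrps22, and rounding is coarse at such levels.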
